A study of Mus musculus with 8 samples.

Results

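The colony-stimulating factor ligands and receptors are a small set of cytokines and cell surface receptors on which cells of the myeloid lineage depend. The set was taken by gene symbol and holds 7 genes. Its ligands are Csf1 and Il34, and its receptors are Csf1r, Csf2ra, Csf2rb, Csf2rb2 and Csf3r. Of these, 5 had a named probe set among the 30142 genes named on the array, each with 1 probe set, and Csf2rb and Csf2rb2 were not analysed here. The values come from 8 whole-transcript arrays of microglial RNA from the central nervous system of C57Black/6J mice, with 1 array for each of 8 groups.

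The groups cross 2 genotypes with 4 states. Control animals are labelled FL or F/F and also appear as wt or without a genotype. The icKO animals carry a conditional knockout that the study's title places in oligodendroglia, so the deletion lies in another cell type than the one profiled. The states are naive, experimental autoimmune encephalomyelitis (EAE, an immune-driven model of multiple sclerosis), EAE with iguratimod (IGU, a small-molecule antirheumatic drug), and EAE marked p50, a label whose meaning is not given. The Cre driver, the age and sex of the animals, the dose of iguratimod and the number of animals behind an array are not given in the sources used here.

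CSF1R is the tyrosine kinase receptor on which microglia depend for survival and renewal. Its ligands are colony-stimulating factor 1 and interleukin 34, of which the latter is made largely by neurons in the brain. CSF2RA is the ligand-binding chain of the receptor for GM-CSF, a cytokine needed by myeloid cells in EAE, and it signals through a shared beta chain encoded by Csf2rb. CSF3R is the receptor for G-CSF and is best known for driving the production of neutrophils.

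The arrays differed in more than their labels. Median intensities lay between 243 and 269, so the arrays were alike at their medians. The medians do not describe the bright range, where Csf1r and Csf3r lay. Of 10 microglia markers, 9 were measured, and all 9 lay above the array's median named probe set on every array. The median level of the neutrophil markers, as log2(intensity + 16), was 14.42 on the EAE control array and between 9.13 and 11.48 on the other 7 arrays. The median of the monocyte markers was 9.55 and 9.62 on the EAE arrays, 9.39 on the icKO iguratimod array and between 8.03 and 8.48 on the remaining arrays. Of other brain cells, 0 of 6 neuron markers, 1 of 6 measured oligodendrocyte markers, and at most 2 of 6 astrocyte and 1 of 6 endothelial and mural cell markers lay above that median on any array. Xist, the RNA that coats the inactive X chromosome of female cells, read 15.90 on the control and 16.64 on the icKO p50 array, while the 6 other arrays lay between 7.71 and 8.30. Each p50 comparison therefore also compares arrays with high and low Xist, and the p50 label and sex cannot be told apart. The p50 arrays are also titled unlike the others, with Mic in place of MG and, for the control, F/F in place of FL. What lies behind these titles is not given, and it cannot be told apart from the p50 label either.

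The promoters of the members with a measured level that RefSeq tables hold (GRCm38.p6) are shown with their matches to motifs of myeloid and inflammatory transcription factors. Each sequence is the 250 bases before the gene's start, read 5′ to 3′ on the gene's strand, and capitals mark matches on either strand to the motifs searched.
Csf1, chr3:107760470-107760719, minus strand: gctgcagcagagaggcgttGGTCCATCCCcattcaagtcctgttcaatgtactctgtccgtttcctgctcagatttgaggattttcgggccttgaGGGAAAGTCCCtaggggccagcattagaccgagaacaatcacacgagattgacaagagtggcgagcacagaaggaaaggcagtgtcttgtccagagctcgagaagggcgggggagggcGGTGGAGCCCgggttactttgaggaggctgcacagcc
Csf3r, chr4:126024409-126024658, plus strand: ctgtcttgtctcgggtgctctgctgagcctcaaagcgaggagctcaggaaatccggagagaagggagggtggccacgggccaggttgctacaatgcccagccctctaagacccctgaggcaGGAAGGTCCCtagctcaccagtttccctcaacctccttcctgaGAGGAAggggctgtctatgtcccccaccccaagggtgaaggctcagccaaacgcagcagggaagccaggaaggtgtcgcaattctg
Csf2ra, chr19:61228419-61228668, minus strand: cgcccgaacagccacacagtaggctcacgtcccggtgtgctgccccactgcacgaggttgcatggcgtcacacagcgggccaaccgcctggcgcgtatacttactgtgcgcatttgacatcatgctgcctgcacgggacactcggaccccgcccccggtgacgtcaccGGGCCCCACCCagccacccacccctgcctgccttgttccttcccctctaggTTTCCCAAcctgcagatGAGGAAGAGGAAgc

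The motifs searched were GAGGAA for PU.1, TGANTCA for AP-1, GGG and CC with any 5 bases between them for NF-kB, TTCNNNGAA for STAT and TTNCNNAA for C/EBP, each on both strands. The Csf1 window held 4 NF-kB matches, of which the pair 155 to 145 bases before the start overlap on opposite strands. The Csf3r window held 1 NF-kB match, 129 to 120 bases before the start, and 1 PU.1 match, 86 to 81 bases before it. The Csf2ra window held a pair of PU.1 matches within the last 14 bases, 2 overlapping NF-kB matches and 1 C/EBP match. None of the windows shown held an AP-1 or STAT match, and the Csf1 window held no PU.1 or C/EBP match. Among 32851 promoter windows of the same length, 45.8% held an NF-kB match, 23.3% a PU.1 match, 36.8% a C/EBP match, 7.02% a STAT match and 6.75% an AP-1 match. A match describes letters only, and no binding was measured here.

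Csf1, the ligand of CSF1R, was lowest on the naive arrays. Its level, as log2(intensity + 16) throughout, was 8.66 in control and 8.67 in icKO naive microglia. It was 9.38 and 9.58 in EAE, 8.84 and 9.39 in EAE with iguratimod, and 8.999 and 9.43 in p50 EAE, control first. Both naive arrays lay below each of the other 6, and the icKO array was the higher of the pair in 4 of 4 states.

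Il34, the other ligand, was dim on every array. It read 7.59 and 7.53 in naive, 7.67 and 7.49 in EAE, 7.55 and 7.70 with iguratimod, and 7.38 and 7.57 in p50 EAE. All 8 values lay below the array's median named probe set, between percentiles 21.1 and 32.7, and spanned 0.32. No detection calls were used, so such a level cannot be told from absence. Il34 did not pass the filter on dim genes and was not tested.

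Csf1r was bright, at percentiles 98.7 to 99.4 of each array's named probe sets. It read 15.61 and 15.81 in naive microglia, 15.79 and 15.54 in EAE, and 15.28 and 15.82 in EAE with iguratimod. In p50 EAE it read 16.66 and 16.58. The p50 arrays stood above all 6 others, while naive, EAE and iguratimod arrays overlapped. The p50 intensities of 103498 and 98120 exceed what a 16-bit scanner can record. They are therefore products of the processing, whose steps are not given, and not direct readings. How close the underlying probes were to saturation cannot be read from the file.

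Csf2ra stayed close to or below the middle of the array, at percentiles 30.9 to 55.7. It read 7.81 and 7.90 in naive, 8.17 and 8.35 in EAE, 7.75 and 7.89 with iguratimod, and 8.04 and 8.08 in p50 EAE. The EAE arrays were the highest pair and the p50 arrays came next, without overlap. Only the 2 EAE arrays lay above the median named probe set. Csf2ra thus entered the test through the state where it was high, and its EAE differences are not support of their own. Without detection calls, its levels below that median cannot be told from absence.

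Csf3r was bright, at percentiles 96.3 to 97.9. It read 12.97 and 13.07 in naive microglia, 14.23 and 13.81 in EAE, 12.97 and 13.59 with iguratimod, and 14.35 and 14.11 in p50 EAE. EAE and p50 arrays lay above all naive and iguratimod arrays. The control iguratimod array stood at the naive level, and the icKO one lay between the naive and the EAE arrays.

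**Figure D1:**
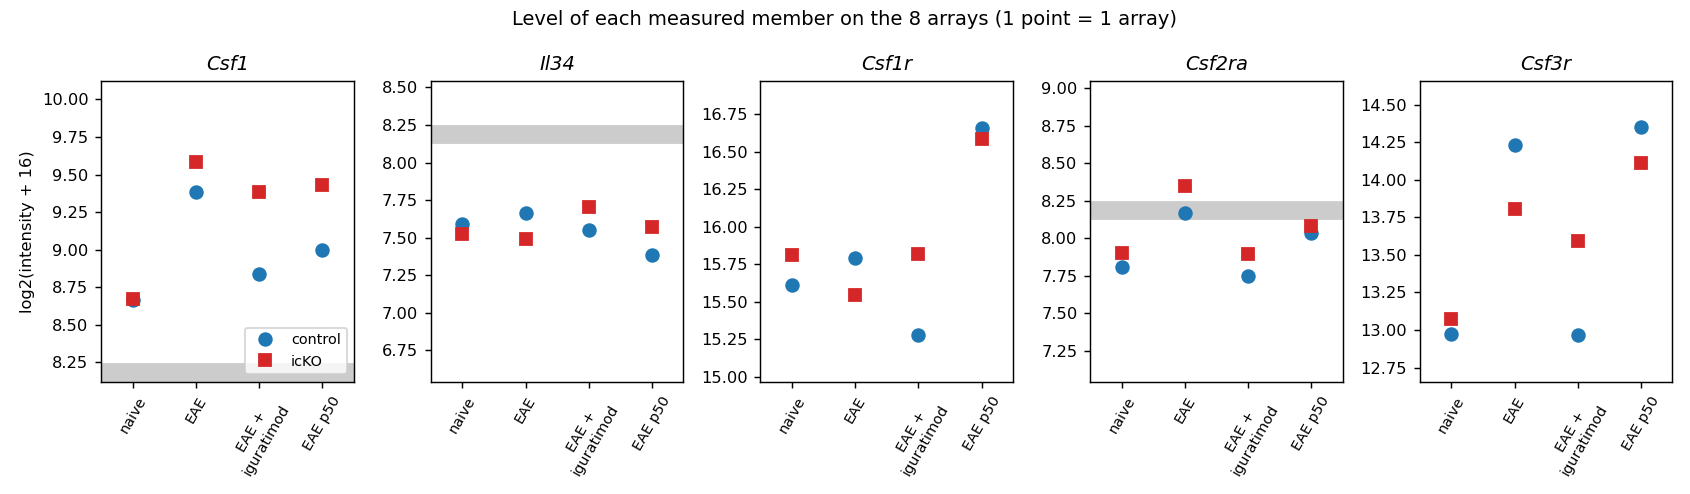
Level of the 5 measured genes, as log2(intensity + 16), on each of the 8 arrays by state, with control animals as circles and icKO animals as squares. Each panel spans the same number of log2 units around its own centre, and the grey band is the range of array medians of named probe sets. Csf1r is highest on the p50 arrays, Csf3r on the EAE and p50 arrays, and Il34 lies below the band on every array.

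The first comparison asked how the set differed between EAE and naive microglia. With 1 array per group, an additive model of state and genotype was fitted over all 8 arrays with limma, and the spread was taken from how far the 2 genotypes disagreed across states. Of 17882 genes tested, 3.91% passed an adjusted p of 0.05 (3.5% higher and 0.414% lower), and 0 of the 4 tested members did. At an unadjusted p below 0.05 there were 3 of 4 members, or 2 of 3 without Csf2ra, which was tested through its EAE arrays alone, beside 19.3% of all genes. Csf1 was 1.76-fold higher on the log2(intensity + 16) scale used for all folds, a log2 difference of 0.82 ± 0.16 (SE; 95% confidence interval 0.41 to 1.22), with a limma adjusted p of 0.0595. It was 0.72 higher in control and 0.91 higher in icKO animals. The Csf1 limma adjusted p ran from 0.0418 to 0.116 over alternative settings, so its call depends on them. It passed when the arrays were centred on their medians (adjusted p 0.0418) or when the filter was set at the 70th percentile (adjusted p 0.0473). That range does not count the fits with each array left out in turn, in which the Csf1 estimate ran from 0.62 to 1.01.

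Csf3r differed by 0.998 ± 0.26 (0.36 to 1.63; adjusted p 0.107, limma) between EAE and naive. The gap was 1.26 in control and 0.74 in icKO animals. Csf2ra differed by 0.40 ± 0.12 (0.11 to 0.68; adjusted p 0.138). Csf1r differed by -0.04 ± 0.21 (-0.55 to 0.46; adjusted p 0.933), and its sign was unlike in the genotypes, at 0.18 in control and -0.27 in icKO animals.

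Markers of blood-borne cells were also compared between EAE and naive. The neutrophil list, of which 9 of 10 genes were tested, was higher in EAE for 9 of 9, with a median difference of 3.56. None passed limma's adjusted threshold, and 7 of 9 had an unadjusted p below 0.05, beside 19.3% of all genes. S100a8, a calcium-binding protein abundant in neutrophils, read 18.88 on the EAE control array and 15.12 on the EAE icKO array, beside 12.60 and 10.00 on the naive ones. The monocyte list was higher for 7 of 7 tested genes. F13a1 entered the test through the EAE icKO array alone, and Plac8 and Itga4 through arrays of disease states alone. The direction of these genes is therefore not support of its own. On the control arrays F13a1 read 8.14 in naive and 7.91 in EAE. Beside 3.5% of all genes higher, 2 of the 7 monocyte genes rose. They were Ly6c2, a surface marker of inflammatory monocytes, by 4.32 (adjusted p 0.0189), and Ms4a4c by 2.61 (adjusted p 0.0300). Leaving out any 1 of the naive or EAE arrays ended both calls (adjusted p up to 0.120 and 0.151), and leaving out a p50 array ended that of Ms4a4c (0.0685). The microglia list was lower for 8 of 9 tested genes, with a median of -0.48. The part of neutrophils and monocytes in the Csf1 and Csf3r differences was not tested. In bulk RNA, fewer cells of a type and less RNA per cell cannot be told apart.

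The second comparison set EAE with iguratimod against EAE alone. In this comparison 0% of all genes passed limma's adjusted threshold and 0 of 4 members did, while 2 of 4 members and 8.49% of all genes had an unadjusted p below 0.05. Without Csf2ra, tested only through the EAE arrays of this comparison, it was 1 of 3. The estimates of Csf1, Csf1r and Csf3r were below 0. Csf3r differed by -0.74 ± 0.26 (-1.38 to -0.11; adjusted p 0.556), Csf2ra by -0.44 ± 0.12 (-0.72 to -0.15; adjusted p 0.523) and Csf1 by -0.37 ± 0.16 (-0.78 to 0.03; adjusted p 0.617). Csf1r differed by -0.12 ± 0.21 (-0.63 to 0.39; adjusted p 0.923). The neutrophil list was lower for 8 of 9 tested genes, with a median of -1.74, and 1 of 9 had an unadjusted p below 0.05. The monocyte list was lower for 7 of 7, with a median of -0.90 and 3 of 7 at an unadjusted p below 0.05. F13a1 was tested through the icKO EAE array of this comparison alone, so its lower value is not support of its own. Ly6c2 differed by -2.23 ± 0.40 (limma adjusted p 0.507). No gene of either list passed limma's adjusted threshold. The part of both lists in these values was not tested.

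The genotypes differed in this drug comparison in the array values. Csf3r was 1.27 lower with iguratimod in control animals and 0.22 lower in icKO animals. Csf1r differed by -0.51 in control and 0.28 in icKO animals. The genotype difference of the drug change was tested in a fit of its own, in which 0% of genes passed limma's adjusted threshold. Each of its 4 arms is 1 array, and its errors rest on 1 residual degree of freedom from the other states, moderated over all genes. It was 1.05 ± 0.31 (0.18 to 1.92; adjusted p 0.597) for Csf3r and 0.79 ± 0.29 (-0.04 to 1.62; adjusted p 0.608) for Csf1r. Of the members, 1 of 4 had an unadjusted p below 0.05, beside 8.25% of all genes. Csf2ra had nearly the same value in both genotypes, -0.42 and -0.45. The neutrophil markers ran the same way as Csf3r, above 0 in 9 of 9 tested genes, with a median genotype difference of 4.22. So did microglia markers in 9 of 9 (median 0.36) and monocyte markers in 5 of 7 (median 0.52). Genes of CSF1R signalling were above 0 in 14 of 15 (median 0.47). Markers of border macrophages were below 0 in 5 of 5 (median -0.33). The part of these cells in the member values was not tested.

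Set against naive microglia, EAE with iguratimod had 0.00559% of genes past the threshold and 0 of 4 members, with 1 of 4 members and 11.1% of all genes at an unadjusted p below 0.05. Csf1 differed by 0.44 ± 0.16 (0.04 to 0.85; limma adjusted p 0.413), with 0.18 in control and 0.71 in icKO animals. Csf3r differed by 0.26 ± 0.26 (-0.38 to 0.89; adjusted p 0.822) and Csf2ra by -0.04 ± 0.12 (adjusted p 0.952). Neutrophil markers were higher for 9 of 9 tested genes (median 1.47), monocyte markers for 6 of 7 (median 0.66, 4 at an unadjusted p below 0.05), and microglia markers lower for 7 of 9 (median -0.36). Of the monocyte genes, Plac8 and Itga4 were tested through arrays of disease states alone, and F13a1 through the EAE icKO array alone. No marker of these lists passed limma's adjusted threshold, and their part in the member values was not tested.

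In p50 EAE the receptors Csf1r and Csf3r were at their highest mean levels. Against naive, 0.833% of genes passed (0.397% higher and 0.436% lower) and 0 of 4 members did, with 3 of 4 members and 20.5% of all genes at an unadjusted p below 0.05. Csf3r was 2.31-fold higher, a difference of 1.21 ± 0.26 (0.57 to 1.84; limma adjusted p 0.0910). Csf1r was 1.88-fold higher, a difference of 0.91 ± 0.21 (0.40 to 1.42; adjusted p 0.0972), with 1.05 in control and 0.77 in icKO animals. Csf1 differed by 0.55 ± 0.16 (adjusted p 0.153) and Csf2ra by 0.20 ± 0.12 (adjusted p 0.383).

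Against EAE, 2.77% of genes passed (1.11% higher and 1.66% lower) and 0 of 4 members did, with 1 of 4 members and 19.7% of all genes at an unadjusted p below 0.05. That member was Csf1r, which was 1.94-fold higher, a difference of 0.95 ± 0.21 (0.45 to 1.46; limma adjusted p 0.0771). The gap was 0.87 in control and 1.04 in icKO animals. Csf3r differed from EAE by 0.21 ± 0.26 (-0.42 to 0.84; adjusted p 0.711), and by 0.43 after quantile normalization (adjusted p 0.496). Against EAE with iguratimod, a comparison added after the data were seen, 0.99% of genes passed (0.587% higher and 0.403% lower) and 0 of 4 members did, with 2 of 4 members and 19.2% of all genes at an unadjusted p below 0.05. There Csf1r differed by 1.07 ± 0.21 (0.56 to 1.58; limma adjusted p 0.0913) and Csf3r by 0.95 ± 0.26 (0.32 to 1.59; adjusted p 0.144). The Csf3r gap was 1.38 in control and 0.52 in icKO animals, and ran from 0.55 to 1.36 with each array left out in turn. The Csf1r gap was 1.38 in control and 0.76 in icKO animals.

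The high Csf3r level of the p50 arrays came with low neutrophil markers. The median of the neutrophil list was 9.13 and 9.41 on the p50 arrays, and S100a8 read 10.22 and 11.31 there. Against EAE the list was lower for 9 of 9 tested genes, with a median of -3.61; 0 of 9 passed limma's adjusted threshold and 7 had an unadjusted p below 0.05, beside 19.7% of all genes. Ly6c2 fell by 4.41 (adjusted p 0.00814), a call that ended without the EAE control array (0.0676) or either p50 array (up to 0.110). Csf3r itself read 14.35 and 14.11 on the p50 arrays and 14.23 and 13.81 on the EAE arrays, control first. The part of neutrophils and monocytes in these Csf3r values was not tested. Tmem119, a surface protein that marks microglia, rose against EAE by 0.90 ± 0.16 (adjusted p 0.0477), and 8 of 9 microglia markers were higher. The Tmem119 call ended without any 1 naive, EAE or p50 array (up to 0.220), with no filter (0.0598), with median centring (0.0555) and with a trended prior (0.0709). The part of Xist-high against Xist-low arrays in the Csf1r and Csf3r values cannot be told apart from the p50 label.

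**Figure D2:**
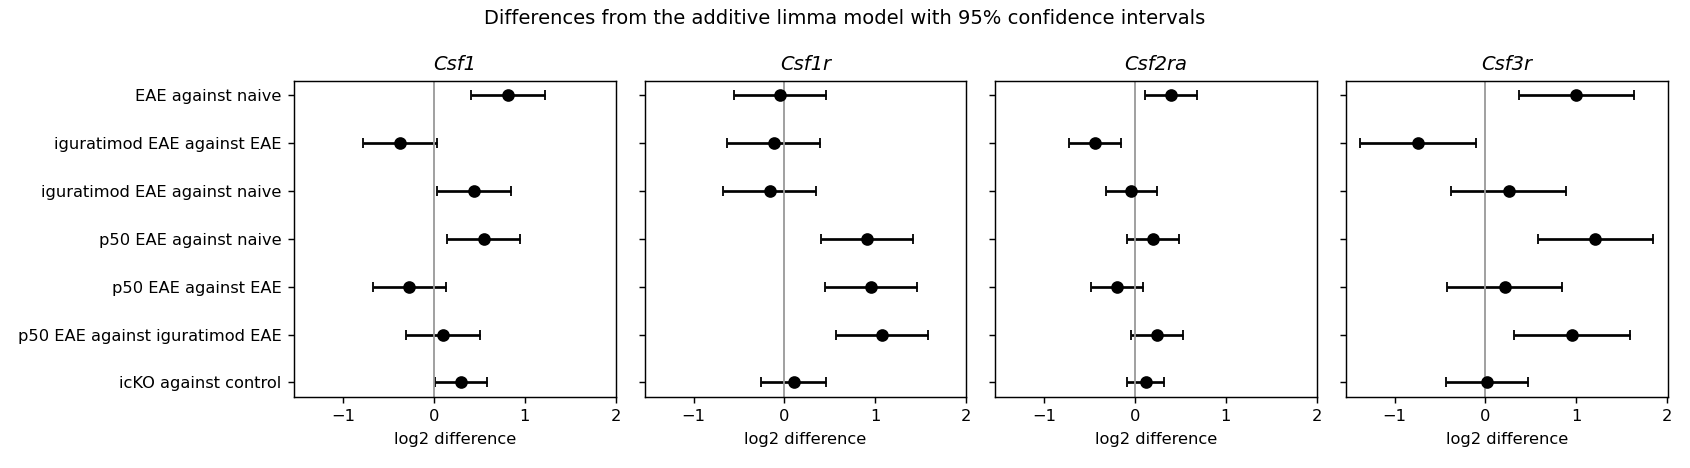
Log2 difference of the 4 tested genes in 7 comparisons, from the additive limma model over 8 arrays. Points are estimates and bars are 95% confidence intervals for a single gene, not adjusted for the number of genes. Intervals of Csf1r exclude 0 in the 3 p50 comparisons alone, and those of Csf3r lie above 0 for EAE and p50 against naive and p50 against iguratimod EAE, and below 0 for iguratimod EAE against EAE.

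Between genotypes over the 4 states, 0% of genes passed limma's adjusted threshold and 0 of 4 members did, with 1 of 4 members and 5.45% of all genes at an unadjusted p below 0.05. Csf1 was higher in icKO animals by 0.30 ± 0.12 (0.01 to 0.58; adjusted p 0.882). Its icKO minus control values were 0.01 in naive, 0.20 in EAE, 0.55 with iguratimod and 0.43 in p50 EAE, with 1 array against 1 in each and no test; the naive value was 0.097 after quantile normalization. Csf2ra differed by 0.12 ± 0.08 (adjusted p 0.905), Csf1r by 0.10 ± 0.15 (adjusted p 0.944) and Csf3r by 0.02 ± 0.18 (adjusted p 0.993). Quantile normalization gave 0.25 for Csf1r and 0.11 for Csf3r. Within states, 1 array against 1, it moved Csf1r from 0.20 to 0.67 in naive and from 0.54 to 0.81 with iguratimod. In p50 EAE it moved Csf1r from -0.08 to -0.25. Csf3r moved from 0.10 to 0.33 in naive and from 0.62 to 0.80 with iguratimod. In the genotype difference of the EAE change, which also rests on 1 residual degree of freedom, again 0% of genes passed, no member had an unadjusted p below 0.05 beside 6.29% of all genes, and the members' values ran from -0.52 for Csf3r to 0.19 for Csf1 (limma adjusted p 0.9999 for each). Quantile normalization moved Csf1r from -0.45 to -0.88, below Csf3r at -0.75, and Csf1 to 0.12 (0.094 with median centring). Microglia markers were below 0 in 9 of 9 tested genes (median -0.89, 5 at an unadjusted p below 0.05) and neutrophil markers in 8 of 9 (median -1.16, 4 at an unadjusted p below 0.05), none past limma's adjusted threshold, and their part was not tested.

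**Figure D3:**
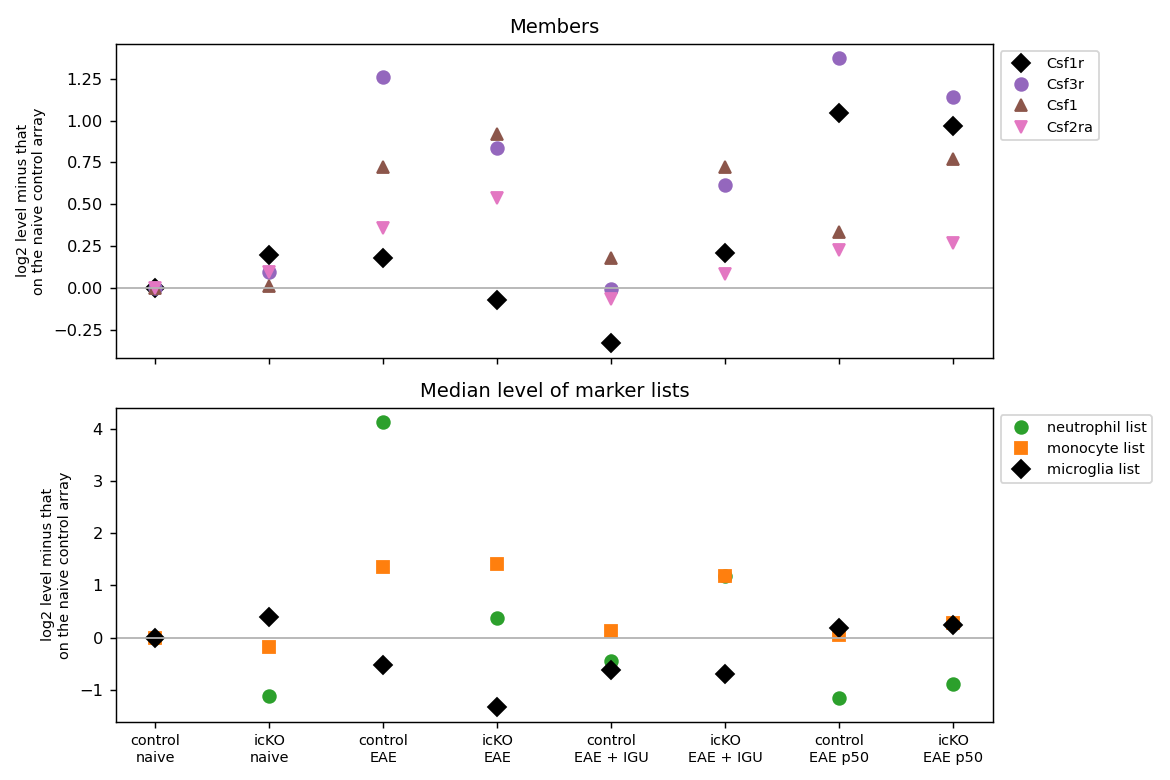
Log2 level minus that on the naive control array, for the 4 tested genes (top) and for the median of the neutrophil, monocyte and microglia marker lists (bottom), on each of the 8 arrays. Csf3r is high on the EAE control array, where the neutrophil median is 14.42, and on both p50 arrays, where it is 9.13 and 9.41.

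The genes around these receptors were read from lists of ligands, signalling proteins and transcription factors. Of 20 genes of CSF1R signalling, 16 were measured and 15 tested. Against EAE in p50 microglia, 1 of 15 rose and 0 fell, beside 1.11% and 1.66% of all genes. There 4 of 15 had an unadjusted limma p below 0.05, beside 19.7% of all genes. The gene that rose was Inpp5d, which encodes the phosphatase SHIP1, a brake on signalling by phosphoinositide 3-kinase. Inpp5d read 12.35 and 12.54 in naive, 12.55 and 12.42 in EAE, 12.02 and 12.28 with iguratimod, and 13.67 and 13.49 in p50 EAE. Its p50 arrays stood above all others, and the difference from EAE was 1.10 ± 0.16 (limma adjusted p 0.0328). Left out in turn, 6 of the arrays ended this call, with adjusted p up to 0.178 without the p50 icKO array; those 6 were the naive, EAE and p50 arrays. A trended, robust prior also ended it (0.0577). Against EAE with iguratimod, Inpp5d rose by 1.43 ± 0.16 (adjusted p 0.0215), a call that ended without any 1 of the iguratimod or p50 arrays (up to 0.180). The list's median difference from EAE was 0.22, beside -0.02 over all genes. Against EAE with iguratimod, 1 of 15 rose and 0 fell, beside 0.587% and 0.403% of all genes. At an unadjusted limma p below 0.05 there were 5 of 15, beside 19.2% of all genes.

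In the other comparisons of naive, EAE and iguratimod microglia, and between genotypes, no gene of CSF1R signalling passed limma's adjusted threshold; 2 of 15 had an unadjusted p below 0.05 in EAE against naive, beside 19.3% of all genes. There were 0 in iguratimod EAE against EAE, against naive and between genotypes, beside 8.49%, 11.1% and 5.45% of all genes. In p50 against naive, 14 of 15 had higher values, with a median of 0.44 beside 0.02 over all genes. Of these 15 genes, 5 had an unadjusted limma p below 0.05, beside 20.5% of all genes. Cbl, a ubiquitin ligase that tags activated CSF1R for degradation, differed by 1.43 ± 0.39 (adjusted p 0.134), and Inpp5d by 1.13 ± 0.16 (adjusted p 0.0502). In EAE against naive, Ptpn6, the phosphatase SHP-1, differed by 0.58 ± 0.22 (adjusted p 0.236), and Plcg2, a phospholipase of myeloid receptor signalling, by 0.56 ± 0.21 (adjusted p 0.220).

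Of 7 transcription factors that act on the Csf1r locus, 5 were measured and tested. Against naive in p50 microglia, beside 0.397% of all genes higher and 0.436% lower, 1 of 5 rose and 0 fell. It was Runx1, a factor of blood cell development, which read 10.19 and 10.48 in naive, 11.04 and 11.05 in EAE, 10.61 and 11.11 with iguratimod, and 11.51 and 11.58 in p50 EAE. All arrays of the 3 disease states lay above both naive ones. The p50 difference was 1.21 ± 0.16 (limma adjusted p 0.0415), and it missed the threshold when each of the 2 naive, 2 EAE or 2 p50 arrays was left out, with adjusted p up to 0.224 without the p50 control array. It also missed it with no filter (0.0575) and with a trended, robust prior (0.0546). Between EAE and naive, Runx1 differed by 0.71 ± 0.16 (limma adjusted p 0.0757). Irf8, a factor needed for microglia, differed by 0.72 ± 0.25 there (adjusted p 0.204). Cebpa, a factor of the myeloid lineage, differed by 0.72 ± 0.18 between p50 EAE and EAE (adjusted p 0.0974).

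The 9 genes of JAK-STAT signalling by the CSF2 and CSF3 receptors were all tested, and 0 passed limma's adjusted threshold in any comparison. In EAE against naive, 9 of 9 had higher values, with a median of 0.23, and 3 had an unadjusted p below 0.05, beside 19.3% of all genes. In p50 against naive 5 did, beside 20.5% of all genes. Stat3, the main STAT of the G-CSF receptor, read 9.94 and 10.07 in naive and 10.89 and 10.51 in EAE, a difference of 0.69 ± 0.17 (adjusted p 0.0909). In p50 against naive, Stat3 differed by 0.75 ± 0.17 (adjusted p 0.0967) and Tyk2, a Janus kinase, by 0.61 ± 0.17 (adjusted p 0.133). Of 8 STAT-induced feedback and survival genes, 2 passed the filter, and neither was called.

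Among 13 related ligands and receptors, all were measured and 5 passed the filter. Csf2 and Csf3, the ligands of the receptors of this set, did not. Csf2 read between 7.47 and 7.82 and Csf3 between 6.69 and 6.84 over the 8 arrays. Adam17, the protease that sheds CSF1R from the cell surface, differed by 0.66 ± 0.18 between p50 EAE and naive (limma adjusted p 0.125), and 0 of the 5 were called in any comparison, with at most 2 at an unadjusted p below 0.05 (p50 against naive, beside 20.5% of all genes).

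**Figure D4:**
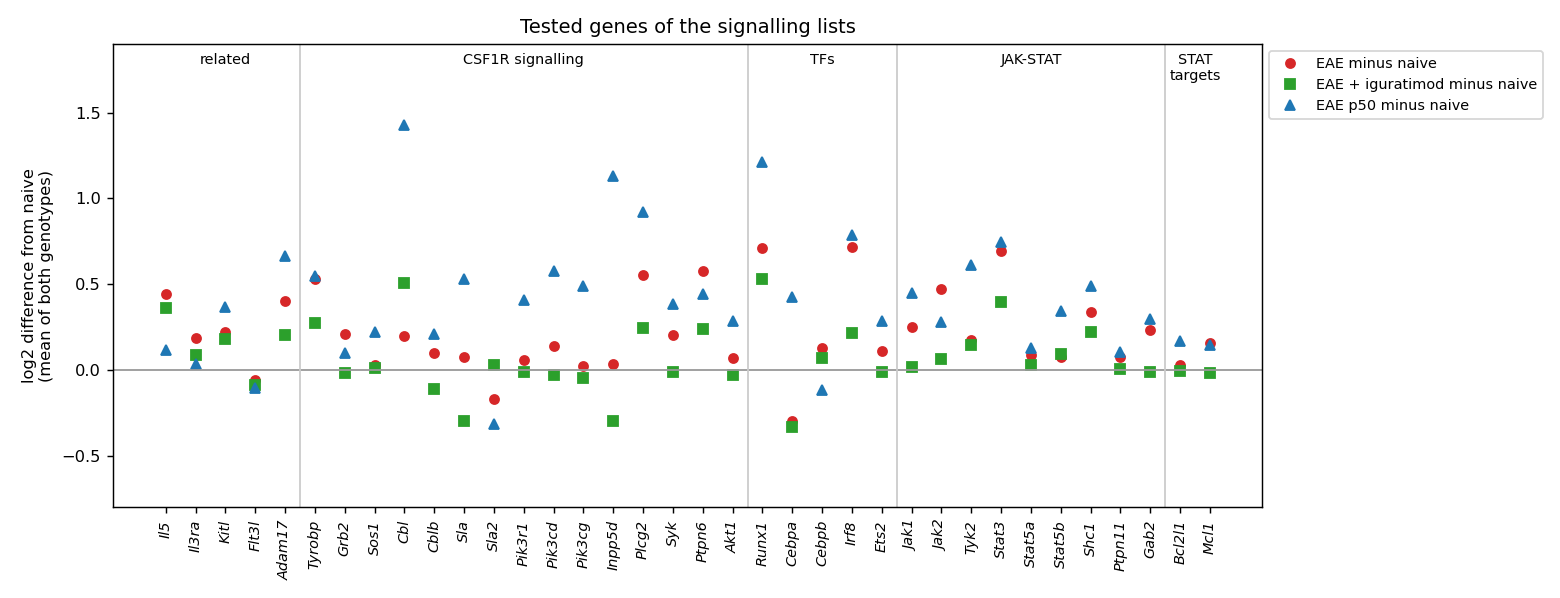
Log2 difference from naive, as the mean of both genotypes, for the tested genes of the 5 signalling lists, in EAE (circles), EAE with iguratimod (squares) and p50 EAE (triangles). The highest points are Cbl, Runx1 and Inpp5d in p50 EAE, at 1.43, 1.21 and 1.13.

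Csf1r and Csf3r each spanned 1.38 log2 units over the 8 arrays, enough to look for genes of like pattern among 1109 that spanned at least 1 unit. For Csf1r the highest Pearson r over the 8 arrays was that of Mertk, a receptor for the uptake of dying cells, at 0.994. Mertk read 13.94 and 13.99 in naive, 14.08 and 13.69 in EAE, 13.47 and 14.05 with iguratimod, and 15.22 and 15.04 in p50 EAE. Trpc4ap, Adap2, Snx29 and Abl1 followed with r between 0.980 and 0.990. For Csf3r the closest was Pld4 at 0.983, then Itgam, the integrin chain CD11b, at 0.972, with Ppp6r3, Ptprj and Pik3ap1 between 0.967 and 0.969. These values share the same 8 arrays, and 110 of the 1109 genes exceeded 0.9 with Csf1r and 59 with Csf3r.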

How the data were processed

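Microglial RNA was amplified and labelled for whole-transcript arrays with a pico-input kit (labels' protocols), and 8 arrays were run. The authors deposited 1 table of 65956 probe sets as intensity values on a linear scale. Affymetrix Expression Console is the tool named by the submitters' processing notes. Summarisation, normalization and build are not given in the sources used here. Values up to 2.23% of rows on an array lay above the 16-bit range and were used unchanged.

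The platform's annotation gave 1 gene symbol for 30604 probe sets. It gave several for 2146, which were dropped, and 33206 are unnamed here. The 827 old symbols were updated through RefSeq, and the brightest of several probe sets stood for each of 355 genes. Promoter sequences came from RefSeq (GRCm38.p6); 4 of the 7 genes matched the promoter table used here.

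Levels are log2(intensity + 16), a scale that compresses changes of dim genes. The 17882 genes that exceeded the median named probe set (50th percentile) on any array were tested with limma 3.58.1 in R 4.3.3: state and genotype added over all 8 arrays, moderated by eBayes, with Benjamini-Hochberg adjustment at 0.05. The genotype difference of a change was fitted with genotype effects for its 2 states. Each group is 1 array, and nothing says how many animals it holds. The p-values of the additive fit reflect how far the genotypes disagreed across states. That disagreement mixes array-to-array spread, which may be technical, with any change that differs between genotypes. The number of arrays limits the precision. The targeted gene is not reported here, so the genotype labels were not checked against it.

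The members and lists were chosen with earlier results of these data known. Named were all members, list genes that passed or were among the 2 with the largest difference, and the 5 genes most alike to each member that spanned 1 log2 unit. Not every list gene that this rule picks is printed. Csf2 and Csf3 were named outside the rule, after their values were seen. F13a1, Plac8 and Itga4 were named for the arrays that let them into the test. S100a8 was among the 2 largest of its list, and its array values were added after they were seen. Alternatives changed the filter, normalization, pseudocount, probe set rule, prior and arrays used.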

Additional observations from a re-analysis of the deposited data

Results flagged for a closer look

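Csf1r and Csf3r had values of opposite sign in control and icKO animals in some comparisons, each from 1 array against 1. For Csf1r, EAE minus naive was 0.18 in control and -0.27 in icKO animals. Its iguratimod EAE minus EAE values were -0.51 and 0.28, and its iguratimod EAE minus naive values were -0.33 and 0.0074, control first. For Csf3r, iguratimod EAE minus naive was -0.0082 in control and 0.52 in icKO animals. The limma test of the genotype difference gave Csf1r an adjusted p of 0.9999 for the EAE change and 0.608 for the iguratimod change. The differences in the changes between iguratimod EAE and naive were not tested, and the values of 0.0074 and -0.0082 are close to 0.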

How the results depend on the processing

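No paired analysis was possible because each group holds 1 array and the labels carry no replicate numbers; the additive fit already compares genotypes within states and states within genotypes. In EAE against naive, 1 member was called with the filter at the 70th percentile and 1 with arrays centred on their median, beside 0 in the main analysis, and it was Csf1 in both. Counts of all genes called moved as follows. With the 70th percentile filter they were 3 for iguratimod EAE against naive, 370 for p50 against naive and 15 for the EAE change's genotype difference (main 1, 149 and 0). Quantile normalization gave 272 for EAE against naive, 424 for p50 against naive and 309 for p50 against iguratimod EAE (main 700, 149 and 177). Median centring gave 407 and 278 for the latter pair. A trended, robust prior gave 34 for that same difference. Without both p50 arrays, EAE against naive had 232 and iguratimod EAE against naive 0. The cause was not tested, other than that a left-out array leaves fewer samples.

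With each array left out in turn, genes called ranged from 0 to 619 in EAE against naive, where leaving out any 1 of the naive or EAE arrays gave 0. The range was 0 to 0 for iguratimod EAE against naive, 51 to 223 for p50 against naive, 67 to 430 for p50 against EAE and 44 to 150 for p50 against iguratimod EAE. No member was called in these fits. The sign was not stable for Csf1r in EAE against naive (-0.28 to 0.19; 0.024 with median centring), iguratimod EAE against EAE (-0.41 to 0.17) and iguratimod EAE against naive (-0.45 to 0.13). The same held for Csf3r in iguratimod EAE against naive (-0.15 to 0.66) and p50 against EAE (-0.084 to 0.50), and for Csf1 in p50 against iguratimod EAE (-0.064 to 0.27). Between genotypes, Csf1r ran from -0.042 to 0.22 and Csf3r from -0.19 to 0.16. Csf2ra turned sign in the genotype differences: -0.0074 (quantile) and -0.0062 (centred) for the EAE change, and 0.062 and 0.063 for the iguratimod change. Fits of genotype differences could not be made with an array left out, as no residual degrees of freedom remain.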
